A study of Rattus norvegicus with 8 samples.

Results

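The RNA outside cells was examined in 8 droplet libraries of rat liver immune cells. In each library, barcodes with 1 to 100 unique molecular identifiers (UMIs, which tag single captured transcripts) were taken as empty droplets, and barcodes with at least 500 UMIs were taken as cells. Of 2258568 barcodes with a UMI, 2218913 were empty droplets and 34053 were cells. The 308 to 1105 barcodes per library with over 100 and under 500 UMIs belonged to neither class. The cells came from livers of 4 male Han Wistar rats. A choline-sufficient amino acid diet (CSAA) was fed to NC1 and NC2 and its choline-deficient counterpart (CDAA) to PC1 and PC2, so that each diet stood on 2 animals. From every animal 1 library was prepared from fresh cells and 1 from cells kept for 3 weeks after cryopreservation in DMSO, and no animal without a defined diet was included. The livers had been pressed through filters, red cells had been lysed and immune cells enriched on a density gradient, so that hepatocytes and erythrocytes were meant to be removed. Transcripts of immune cells were present in the cells at high levels: their mean was 7310 CPM (UMIs of a gene per 1000000 UMIs of the same compartment) for Lyz2 of myeloid cells, 7110 CPM for Cd74 of antigen-presenting cells and 1343 CPM for Nkg7 of cytotoxic cells. None of the 13 measured stellate cell and fibroblast markers had enough UMIs to be tested.

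In droplet-based sequencing most droplets contain a barcoded bead and no cell. The bead still captures RNA that floats in the suspension, mainly from cells that burst before encapsulation, and this free or ambient RNA is also captured in the droplets that hold a cell. Barcodes are drawn from 1 fixed set, so that the same barcode can mark a cell in one library and an empty droplet in another.

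Each library held 237980 to 315326 barcodes of the class taken as empty droplets. They carried 1471232 to 2741576 UMIs or 7.54 to 11.8% of all UMIs of the library. The class was set by UMIs alone, and 88468 to 118093 of its barcodes per library had 1 UMI. Whether each such barcode was a droplet was not tested. The median empty droplet carried 2 UMIs. Most free RNA lay in the 57013 to 74892 barcodes per library with 11 to 50 UMIs, which alone held 4.92 to 9.37% of all UMIs. In cells, 15952178 to 23987719 UMIs were counted per library. 1 UMI therefore corresponded to 0.365 to 0.680 CPM in free RNA and to 0.0417 to 0.0627 CPM in cells, and low levels in free RNA were less precise. The number of free UMIs per cell averaged 441 ± 49.7 (SD, n = 4) in fresh and 539 ± 95.7 (SD, n = 4) in DMSO cryopreserved libraries and was higher in the preserved library of all 4 animals. The mean difference was 97.8 ± 55.7 (SD, n = 4; exact sign permutation p = 0.13, two-sided, the smallest that 4 animals allow). The preserved libraries also had fewer cells in all 4 animals. The total of free UMIs was higher after preservation in 3 of 4 animals (exact sign permutation p = 0.375).

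Between 3.43 and 4.10% of the cell barcodes of a library were also cell barcodes in another library. Counting barcodes without a UMI as well, barcodes that were a cell in another library and had at most 100 UMIs here carried 4.64 to 8.89 UMIs on average, whereas all other barcodes with at most 100 UMIs carried 1.90 to 3.53. They held 7.88 to 11% of the free UMIs. Values without these shared barcodes are given beside part of the results below.

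The profile of the free RNA was close to that of the cells. Across 11428 genes tested, Pearson's r of log2(CPM + 1) between the free RNA of a library and its own cells was 0.973 to 0.984. Against the cells of other libraries r was 0.946 to 0.978, and in 8 of 8 libraries the own cells had the highest r. These correlations are across genes, which are not independent, and are given as a description. The transcripts with the most UMIs in free RNA were Tmsb4x, which encodes the actin-binding thymosin beta 4, with a mean of 35044 CPM in free RNA and 30928 CPM in cells, the mitochondrial Mt-atp6, Mt-cox3, Mt-co1, Mt-nd1 and Mt-co2, the transcript Rn60_1_2212.4, Rpl41, Tmsb10 and Fth1. Of these 10, Rn60_1_2212.4 was lower in free RNA (log2 fold change −0.65 ± 0.06 SE, adjusted p = 1.5e-07) and Mt-nd1, a subunit of respiratory complex I, was higher (0.29 ± 0.09 SE, adjusted p = 0.025) by edgeR's quasi-likelihood test with Benjamini-Hochberg adjustment over 4 animals. Mt-nd1 was at 0.30 (adjusted p = 0.083) without animal PC1 and at 0.12 (adjusted p = 0.31) without PC2. The other 8 did not pass the test, with log2 fold changes between −0.07 and 0.22.

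Free RNA and cells were then compared gene by gene, with the 2 libraries of an animal summed and the animal as a block. A gene was called at an adjusted p under 0.05 and at least a 2-fold change. 88 genes (0.77% of 11428) were higher and 193 genes (1.69%) were lower in free RNA, together 281 genes or 2.46%. The median log2 fold change over all genes tested was −0.00. Without a fold minimum 1292 genes (11.3%) were higher and 1575 (13.8%) were lower. Many of the 281 genes had few UMIs: of the 8302 genes with at least 10 UMIs in every column, 28 were higher and 32 were lower by 2-fold, and without a fold minimum 13.1% were higher and 16.8% were lower. The scatter of mean levels shows that called genes were mostly of low level and that abundant genes lay near the line of equal levels.

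**Figure D1:**
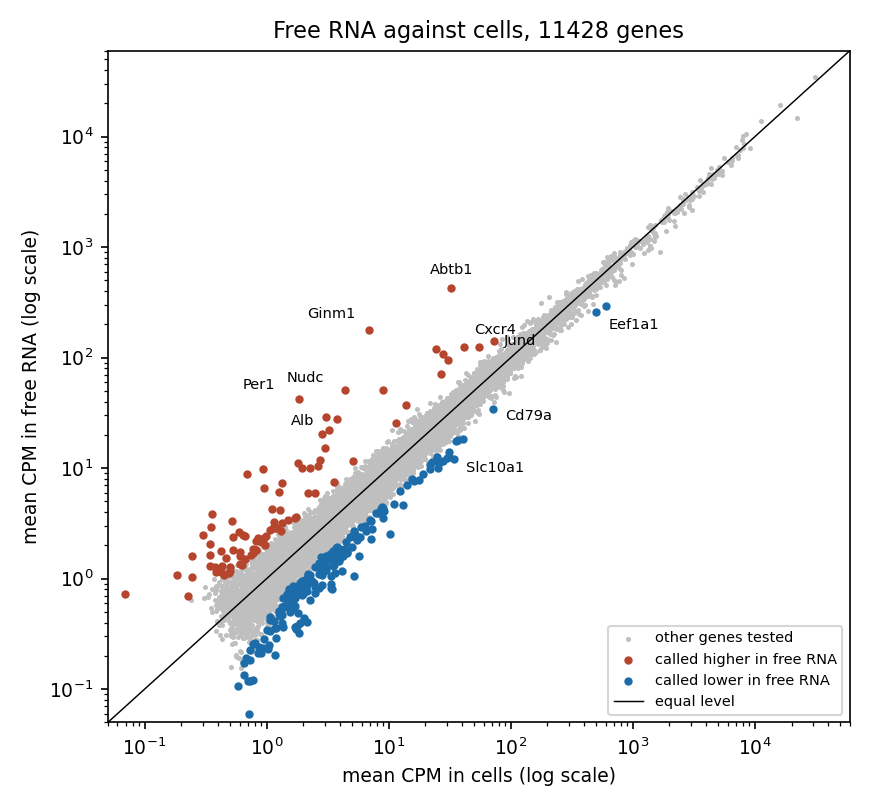
Mean CPM in cells (x axis, log scale) against mean CPM in free RNA (y axis, log scale) over 8 libraries for each of the 11428 genes tested, with genes called higher in free RNA in red, genes called lower in blue and the line of equal levels in black. Ginm1, Abtb1, Nudc and Per1 lie farthest above the line at their levels, and Eef1a1 and Cd79a lie below it.

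In all, 11 called genes were higher in free RNA in 8 of 8 libraries with at least 50 CPM. They were Ginm1, Abtb1, Nudc, Rpusd1, Mfsd14b, Hps5, Stxbp3, Cxcr4, Rap1gap2, Wipf1 and Jund. Of these only Jund is on one of the gene lists used below. Cxcr4 is a chemokine receptor of leukocytes, Wipf1 binds the actin regulator WASP, Hps5 and Stxbp3 act in vesicle traffic and Jund is a subunit of the transcription factor AP-1. Ginm1, which encodes a membrane glycoprotein, was measured in free RNA at 243, 178, 154 and 157 CPM in fresh NC1, NC2, PC1 and PC2 and at 190, 189, 165 and 148 CPM in the preserved libraries of the same animals. In cells it was 5.38 to 9.53 CPM, and the 2 ranges did not overlap. The log2 fold change was 4.63 ± 0.06 SE (n = 4, adjusted p = 6.9e-22). Abtb1, which encodes an ankyrin repeat and BTB domain protein, lay at 316 to 527 CPM in free RNA and at 28.3 to 35.9 CPM in cells (log2 fold change 3.68 ± 0.05 SE, adjusted p = 5.2e-21). Nudc, a nuclear movement factor, lay at 37.0 to 69.8 CPM against 3.84 to 5.03 CPM (3.49 ± 0.09 SE, adjusted p = 4.6e-16). Fresh and preserved libraries overlapped in free RNA for all 3 genes. NC and PC libraries overlapped for Abtb1 and Nudc but not for Ginm1, which lay at 178 to 243 CPM in NC and at 148 to 165 CPM in PC free RNA, a difference that did not pass the test (log2 fold change −0.31, adjusted p = 0.31). The clock gene Per1, named here after its values were seen because its level fell under the 50 CPM required, averaged 42.0 CPM in free RNA and 1.85 CPM in cells (4.45 ± 0.10 SE).

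10 of these 11 genes were concentrated in the shared barcodes. Over all tested genes with at least 50 free UMIs, the median share of free UMIs in barcodes that were a cell in another library was 9.13%, and 74 of 8613 genes exceeded 20%. For Ginm1 it was 63.0% of 2935 free UMIs, for Nudc 62.2%, for Abtb1 59.3%, for Mfsd14b 55.6%, for Hps5 51.3%, for Rpusd1 49.2%, for Wipf1 42.5%, for Cxcr4 41.1%, for Stxbp3 40.9% and for Rap1gap2 39.4%. Jund was the exception with 5.32%. For Per1, which is not among the 11, the share was 59.7% of 697 free UMIs. Within the shared barcodes Ginm1 reached 928 to 1572 CPM, over 8 libraries, far above its level in the cells of any library. These genes also did not follow the bulk of the free RNA over droplet size. The mean level of Ginm1 was 331 CPM in barcodes with 1 UMI, 572 CPM with 2 to 10, 79.9 CPM with 11 to 50, 67.5 CPM with 51 to 100 and 8.87 CPM between 100 and 500 UMIs.

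Without the shared barcodes, 298 genes were called in place of 281 and 241 were common to both, and 11.3% of the genes were higher and 14.1% lower without a fold minimum. Ginm1 then lay at 57.8 to 113 CPM (log2 fold change 3.33, adjusted p = 8.4e-20), Abtb1 at 143 to 247 CPM (2.52) and Nudc at 15.4 to 29.0 CPM (2.23), and all 3 stayed above the cells in every library. Stxbp3 (0.96), Cxcr4 (0.89), Rap1gap2 (0.76) and Wipf1 (0.46) fell under the 2-fold minimum. In the droplets with 10 to 100 UMIs and without shared barcodes, a setting chosen after seeing the data, Ginm1 stayed called at 1.26 (adjusted p = 1.7e-07). There Abtb1 was at 0.92, Nudc at 0.41 (adjusted p = 0.17), Hps5 at 0.17 (adjusted p = 0.17) and Mfsd14b at −0.11. The part of shared barcodes and small droplets in the excess of these genes was measured only in this way, and its cause was not tested.

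**Figure D2:**
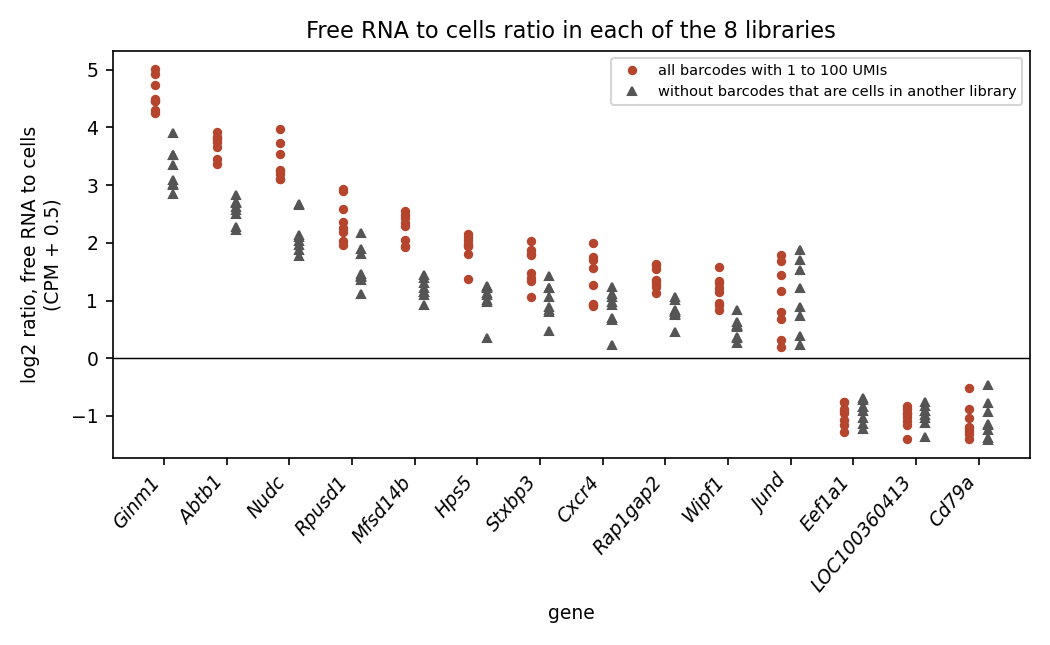
Log2 ratio of free RNA to cells (CPM + 0.5) for 14 called genes, 1 point per library (n = 8). These genes had a mean of at least 50 CPM in the higher compartment and the same direction in 8 of 8 libraries. Values are given for all empty droplets (red circles) and without barcodes that are cells in another library (grey triangles). Of the 11 genes above 0, 10 move toward 0 without the shared barcodes, whereas Jund and the 3 genes under 0 stay in place.

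Jund was the one gene of the 11 whose excess did not lie in shared barcodes. Its level in free RNA was 95.8, 117, 101.3 and 112 CPM in fresh NC1, NC2, PC1 and PC2 and 116, 227, 143 and 229 CPM after DMSO preservation. In the cells it was 76.9, 73.1, 36.9 and 34.4 CPM in fresh and 101.2, 130, 63.7 and 65.4 CPM in preserved libraries. The log2 fold change was 1.02 ± 0.15 SE (adjusted p = 3.5e-05) and 1.08 without shared barcodes. Without animal PC2 it was 0.73 and without PC1 0.94, both under the 2-fold minimum. Jund was highest in barcodes with 1 UMI (577 CPM) and lay at 102 CPM at 11 to 50 UMIs, and in droplets with 10 to 100 UMIs and without shared barcodes its log2 fold change was 0.55.

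3 genes with at least 50 CPM were lower in free RNA in 8 of 8 libraries. Cd79a, a signalling chain of the B cell receptor, lay at 13.1 to 55.4 CPM in free RNA and at 35.6 to 93.7 CPM in cells (log2 fold change −1.14 ± 0.07 SE, adjusted p = 1.0e-09). Eef1a1, which brings aminoacyl-tRNA to the ribosome, lay at 126 to 425 CPM against 264 to 814 CPM (−1.03 ± 0.06 SE, adjusted p = 2.5e-10). LOC100360413 lay at 200 to 360 CPM against 427 to 808 CPM (−1.07 ± 0.06 SE). The ranges of the compartments overlapped for Cd79a and Eef1a1 and not for LOC100360413, and each gene was lower in free RNA within every library. Without shared barcodes they were at −1.10, −0.99 and −1.02. Eef1a1 was at −0.99 without animal NC2 and −0.97 without PC2, and LOC100360413 at −0.99 without NC2, under the 2-fold minimum. Slc10a1, the bile acid uptake carrier of hepatocytes, was also lower (12.0 against 34.2 CPM on average, −1.49 ± 0.10 SE), and was named after its values were seen.

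Hepatocyte transcripts were the only one of 27 gene lists in which most tested members were higher in free RNA by 2-fold. Of 29 measured members 18 passed the filter on low values, of which 15 were higher, 14 of them by 2-fold, and none was lower, with a median log2 fold change of 1.91 beside −0.00 over all genes. Members with low levels in cells could pass the filter through free RNA alone. Of the 7 members with at least 10 UMIs in every column 5 were higher and 1 was lower. The level of most was low: Alb, which encodes albumin, averaged 27.9 CPM in free RNA and 3.78 CPM in cells (log2 fold change 2.67). The apolipoprotein gene Apoc1 averaged 11.9 against 2.74 CPM (1.90), Fabp1, a fatty acid binding protein of the liver, 10.6 against 2.65 CPM (1.82), and Serpina1, a secreted protease inhibitor, 6.65 against 0.953 CPM (2.61). Tf, the iron carrier transferrin, was the most abundant member and did not pass the test (334 against 352 CPM, −0.12, adjusted p = 0.085), and Hp, which encodes haptoglobin, was 71.6 against 58.0 CPM (0.24, adjusted p = 0.0080). Summed over the list, hepatocyte transcripts were 0.0319 to 0.101% of free UMIs and 0.0273 to 0.0622% of cell UMIs. The sums averaged 0.0534% and 0.0448%, and most of them lay in Tf and Hp, so that they say little about the other members. The mean difference was 0.00864 ± 0.00838 percentage points (SD, n = 4 animals; exact sign permutation p = 0.13). Without animal PC1 it was 0.00467, the median of the list was 1.30 with 13 of 18 genes higher, and Apoc1 was at 1.09. Without shared barcodes 15 of 18 genes were higher (median 1.99). In barcodes with 1 UMI 4 of 16 were higher and 1 was lower (median 1.13). With no filter on low values 19 of 28 were higher and 2 were lower (median 1.92). The hepatocyte carrier gene Slc10a1, which was lower in free RNA, is not on the list.

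The hepatocyte excess was called mainly in the fresh libraries. Of 13 hepatocyte genes tested for a change of the free RNA to cells ratio from fresh to DMSO, 2 passed the test, both lower after preservation. Over all genes 0.648% were lower and 0.206% were higher in this test. The median log2 difference of the hepatocyte genes was −1.35 beside −0.02 over all genes. Alb was measured in free RNA at 25.5, 6.02, 124 and 50.8 CPM in fresh NC1, NC2, PC1 and PC2 and at 6.45, 1.36, 3.53 and 5.84 CPM in the preserved libraries, which rested on 2 to 16 UMIs. The highest fresh level was that of PC1, and the preserved library was lower in 4 of 4 animals. Without PC1 the difference of the Alb ratio was −0.78 (adjusted p = 0.65). In cells Alb lay at 1.13 to 9.54 CPM before and at 0.897 to 2.19 CPM after preservation. With the DMSO libraries alone 9 members were tested, of which 2 were higher and 1 was lower (median 0.51), and with the fresh libraries alone 15 of 18 were higher (median 2.26). The filter on low values was run anew for each subset, so that these counts and medians cover different members. Members of low level could pass it through fresh free RNA alone, and the medians do not measure a change by preservation. The summed share of the list, on average mostly Tf and Hp, was higher in free RNA than in cells in 4 of 4 fresh and 2 of 4 preserved libraries. The gap in this share fell from fresh to DMSO in 3 of 4 animals (exact sign permutation p = 0.25). Alb was not concentrated in the smallest droplets: its mean level was 18.3 CPM in barcodes with 1 UMI, 30.8 CPM at 11 to 50, 70.2 CPM at 51 to 100 and 116 CPM between 100 and 500 UMIs, and only 26 of its 468 free UMIs lay in shared barcodes. The preserved cells had also been diluted, centrifuged and washed after thawing. Fewer hepatocytes, less RNA per hepatocyte and an effect of these steps on free RNA cannot be told apart in these sums.

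Lists of immune cell types showed smaller differences. Over all genes tested 11.3% were higher and 13.8% were lower without a fold minimum, and the counts below are to be read against these shares. Of 10 plasmacytoid dendritic cell genes 6 were lower in free RNA and none was higher (median −0.44), among them Tcf4, a lineage regulator, at 44.4 against 75.2 CPM (−0.80), Irf7, an interferon regulator, at 66.0 against 107 CPM (−0.73) and the surface receptor Siglech at 166 against 225 CPM (−0.46). Of 14 cycling genes 7 were higher and 2 were lower (median 0.41). Stmn1, a tubulin-binding protein, averaged 321 against 238 CPM (0.47). Ube2c, a ubiquitin-conjugating enzyme that works with the anaphase complex, averaged 79.5 against 52.6 CPM (0.62). The kinase gene Cdk1 averaged 29.2 against 18.7 CPM (0.68), whereas Mki67 (−0.32) and Cenpf (−0.43) were lower. With the fresh libraries alone 2 cycling genes were higher, and in barcodes with 1 UMI none was. Of 16 cathepsin and lysosome genes 9 were lower and 1 was higher (median −0.17), with Ctss, a cathepsin of antigen-presenting cells, at 17.5 against 35.9 CPM (−1.12). Of 13 NK and cytotoxic genes 5 were lower, with Prf1, which encodes perforin, at 566 against 806 CPM (−0.56), and 2 were higher, with the receptor gene Klrd1 at 588 against 483 CPM (0.26). Of 12 monocyte genes 4 were lower and 1 was higher, of 13 Kupffer cell genes 2 were higher and none was lower, of 11 B cell genes 2 were higher and 2 lower, and of 13 T cell genes 3 were higher and 1 lower, with medians between −0.12 and 0.11. The counts of these 4 lists are small, and for B cells, with 2 of 11 in each direction, they were near the shares over all genes.

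Of 77 tested cytosolic ribosomal protein genes 27 were lower, 2 were higher and 48 did not pass the test (median −0.12). Rps25 averaged 1023 against 1388 CPM (−0.48) and Rps10 125 against 182 CPM (−0.60). The summed share was 17.6 to 23.7% in free RNA and 19.6 to 25.3% in cells, and it was higher in free RNA in 1 of 8 libraries. The mean difference was −1.20 ± 1.35 percentage points (SD, n = 4 animals; exact sign permutation p = 0.25), and −0.594 without animal NC2. Of 18 abundant cytosolic protein genes 11 did not pass the test and 6 were lower, with the glycolytic Gapdh at 262 against 434 CPM (−0.76) and the actin gene Actb at 1026 against 1373 CPM (−0.46), and 1 was higher. Of 18 immediate early genes 5 were lower and 2 were higher, with Klf6 at 48.3 against 96.1 CPM (−0.98). Of 20 secretory pathway genes 5 were lower and 1 was higher, of 13 heat shock genes 3 were lower and 1 higher, of 10 MHC class II genes 3 were lower and 1 higher, and of 26 nuclear respiratory chain genes 2 were lower and 4 higher. Against 11.3% higher and 13.8% lower over all genes, counts such as 1 of 13 or 2 of 26 are near or under the background. For the platelet, endothelial, cholangiocyte, neutrophil, conventional dendritic cell, plasma cell and basophil lists at most 2 members passed the test in either direction. Krt18, a keratin on the cholangiocyte list, averaged 3.34 CPM in free RNA against 0.517 CPM in cells (2.45), and without animal PC1 it was 0.56 (adjusted p = 0.57).

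Haemoglobin and erythroid transcripts showed no common direction. Of 16 measured genes 6 were tested, 1 was lower and none was higher. The share was 0.00626 to 0.0385% in free RNA and 0.00557 to 0.0767% in cells. The preserved library of NC1 stood apart with both the highest free and the highest cell share. There Hba-a1, an alpha globin gene, was 129 CPM in free RNA and 281 CPM in cells, whereas in the other 7 libraries it was 3.56 to 6.43 CPM in free RNA and 0.271 to 6.21 CPM in cells. The mean difference in share was −0.00368 ± 0.0101 percentage points (SD, n = 4; exact sign permutation p = 1.0) and turned to 0.00138 without animal NC1. The alpha globin genes have near-identical copies, so that their single values are uncertain.

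The mitochondrial share differed with droplet size and between fresh and preserved libraries. It was 7.02, 9.64, 8.13 and 13.8% in the free RNA of fresh NC1, NC2, PC1 and PC2 and 4.38, 8.32, 5.19 and 5.75% in the preserved libraries. The cells of the same libraries had 6.08, 8.22, 6.07 and 7.02% and 5.21, 7.78, 5.78 and 5.28%. Free RNA was above the cells in 4 of 4 fresh and in 2 of 4 preserved libraries, and PC2 fresh had the largest gap. The mean difference was 1.35 ± 1.57 percentage points (SD, n = 4 animals; exact sign permutation p = 0.13). It was 0.592 without animal PC2 and −0.101 with the DMSO libraries alone. Without shared barcodes it was 1.40 (exact sign permutation p = 0.25). In droplets with 10 to 100 UMIs it was 0.878 (exact sign permutation p = 0.625). The free RNA of these droplets was above the cells in all 4 fresh libraries. It was under the cells in all 4 preserved ones, at 3.70, 7.73, 4.41 and 5.05%. Over droplet size the share did not rise evenly. It was 9.92 to 14.7% in barcodes with 1 UMI and 3.4 to 12.0% at 11 to 50 UMIs. In barcodes with over 100 and under 500 UMIs, which lay between empty droplets and cells, it was 42.2 to 53.8% in fresh and 29.6 to 34.2% in preserved libraries. Barcodes with 51 to 100 UMIs were split, with 22.1 to 34.3% in fresh libraries and 31.9% in NC2 DMSO but 6.03 to 8.82% in the other 3 preserved libraries.

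**Figure D3:**
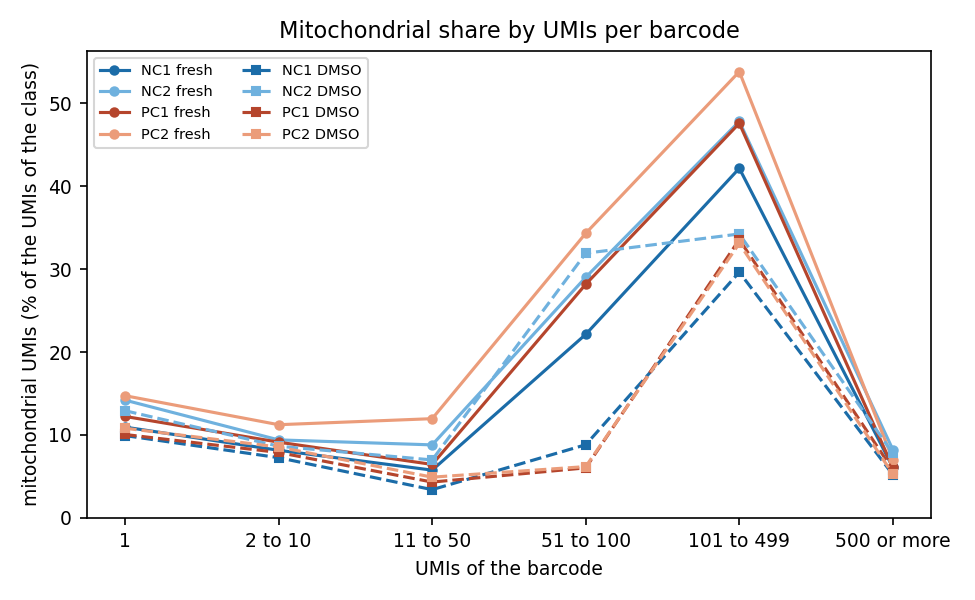
Mitochondrial share of UMIs (y axis, percent) in barcodes of 6 UMI classes (x axis), 1 line per library, with fresh libraries as solid lines and circles and DMSO preserved libraries as dashed lines and squares. In every library the share is highest between 100 and 500 UMIs, between 29.6 and 53.8%, and all 4 fresh libraries lie above all 4 preserved ones there.

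The difference by preservation was tested as the change of the free RNA to cells ratio from fresh to DMSO, over 8 libraries with library terms and the animal as a block of the ratio. 16 genes (0.157% of 10193) were called, 5 with a higher and 11 with a lower ratio after preservation. Without a fold minimum 21 genes (0.206%) had a higher and 66 (0.648%) a lower ratio. Of the 13 mitochondrially encoded genes 12 were among the 66 lower ones and none was higher, with a median log2 difference of −0.66 beside −0.02 over all genes. They included Mt-co1 (−0.79), Mt-cyb (−0.63) and Mt-nd3 (−1.14), each lower in 4 of 4 animals, and the exception was Mt-nd6 (−0.42, adjusted p = 0.44). With any 1 of the 4 animals left out, 12 of the 13 were lower and none was higher, with medians of −0.81 to −0.52. Without shared barcodes 12 were lower (median −0.72). The basophil and mast list went the other way, with 3 of 7 tested genes higher, none lower and a median of 1.60. Its members were of low level, together 0.00350 to 0.0119% of free UMIs. Mt-nd4l, a subunit of complex I, had 15.4, 34.3, 27.7 and 74.8 CPM in fresh and 8.75, 8.84, 5.73 and 13.1 CPM in preserved free RNA. In fresh cells it was 18.4 to 47.5 CPM, in preserved cells 18.9 to 29.0 CPM, and the log2 difference of the ratio was −1.65 ± 0.18 SE (adjusted p = 4.0e-08).

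Among genes with a mean of at least 20 CPM in either compartment and the same direction in 4 of 4 animals, the largest differences were those of LOC680406 (−3.41 ± 0.39 SE, adjusted p = 1.7e-07) and Rup2 (−2.83 ± 0.47 SE, adjusted p = 1.7e-04), followed by Mt-nd4l, Fosb (−1.48 ± 0.22 SE, adjusted p = 2.9e-05) and Alb (−1.42 ± 0.32 SE, adjusted p = 0.015). LOC680406 was 18.3, 18.1, 110 and 23.6 CPM in the fresh and 0.921, 2.04, 3.09 and 1.09 CPM in the preserved free RNA of NC1, NC2, PC1 and PC2, which rested on 2 to 7 UMIs, while its cells lay at 0.538 to 7.83 CPM. Rup2 had nearly the same profile, with 102 CPM in PC1 fresh and 11.5 to 26.3 CPM in the other fresh libraries. LOC680406, Rup2 and Alb all had their highest level in PC1 fresh, and without PC1 their differences were −2.22 (adjusted p = 0.13), −1.12 (adjusted p = 0.70) and −0.78 (adjusted p = 0.65). Asb2, a substrate adaptor of a ubiquitin ligase, was the largest difference in the other direction at 20 CPM or more (1.15 ± 0.18 SE, adjusted p = 8.3e-05). Its level in free RNA was 36.1, 41.0, 12.4 and 6.68 CPM in fresh and 37.8, 50.3, 12.8 and 16 CPM in preserved libraries, and in cells it was 30.1, 27.6, 10.6 and 6.21 CPM and 10.6, 12.6, 10.6 and 7.28 CPM. Neither compartment alone passed the test between preserved and fresh libraries (0.30, adjusted p = 0.35, in free RNA and −0.60, adjusted p = 0.15, in cells). Without NC1 the difference was 0.91, under the 2-fold minimum.

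Within the free RNA alone, 67 genes (0.848% of 7901) differed between preserved and fresh libraries, 31 higher (0.392%) and 36 lower (0.456%). The cells of the same libraries were fitted in the same way for values side by side. At a mean of at least 20 CPM in either compartment and the same direction in 4 of 4 animals, the largest increases were those of the immediate early genes Fosb, Fos and Jun, which encode AP-1 subunits, of the phosphatase gene Dusp1 and of the chemokine gene Ccl3. Jun rose from 34.6, 37.3, 25.2 and 20.9 CPM to 373, 661, 216 and 326 CPM in NC1, NC2, PC1 and PC2, and fresh and preserved libraries did not overlap. The log2 fold change was 3.65 ± 0.13 SE in free RNA (adjusted p = 9.5e-10) and 3.8 in cells. Fos rose by 3.79 ± 0.22 SE in free RNA and 4.73 in cells, Fosb by 4.28 ± 0.25 SE and 6.04, Dusp1 by 2.37 and 2.57 and Ccl3 by 2.05 and 1.86. Of 18 tested immediate early genes 6 were called higher in free RNA and none lower, with a median of 0.65. The largest decreases by the same rule were those of LOC680406 (−4.61 ± 0.26 SE; −1.52 in cells), Rup2 (−4.56; −2.09), Alb (−3.53; −1.82), Mt-nd4l (−2.09; −0.41) and Vamp8, a vesicle fusion protein (−1.65; −0.89), each lower in 4 of 4 animals. In cells Mt-nd4l did not pass the test (adjusted p = 0.12). Without PC1 the values in free RNA were −4.00 for LOC680406, −3.46 for Rup2 and −2.66 for Alb, and without NC1 they were −5.30 for Rup2 and 4.94 for Fosb, all called. Without shared barcodes 60 genes were called in place of 67.

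**Figure D4:**
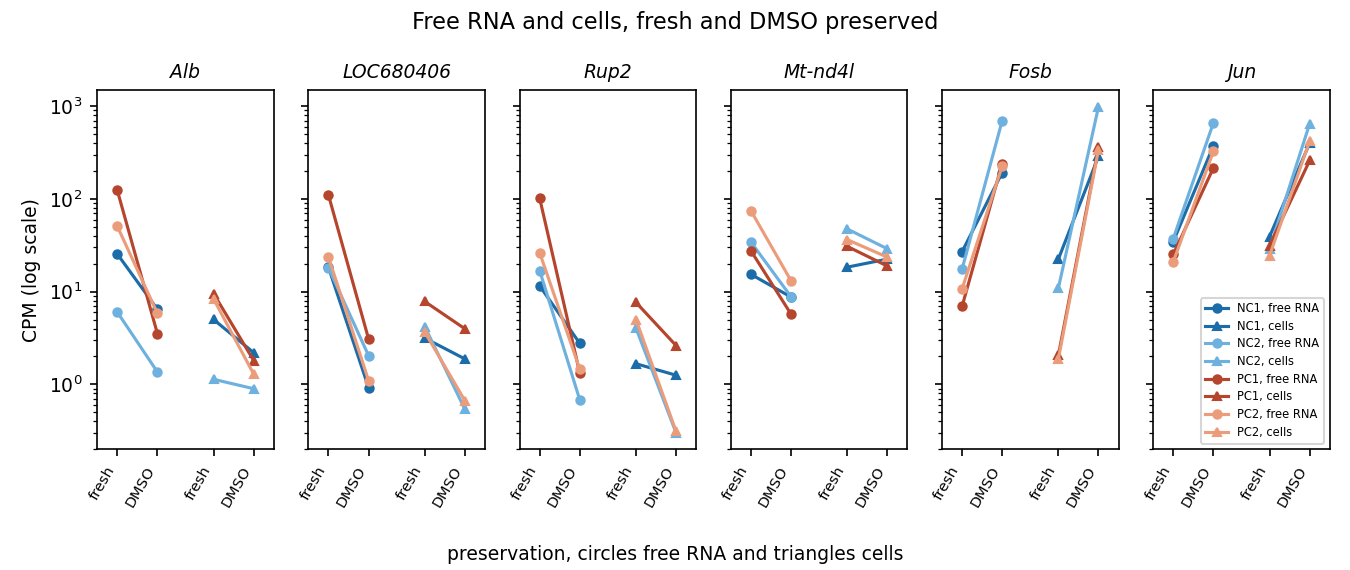
Level (y axis, CPM, log scale) of 6 genes in free RNA (circles) and cells (triangles), with the fresh and the DMSO library of each animal joined by a line. Alb, LOC680406 and Rup2 are highest in the fresh free RNA of PC1 (124, 110 and 102 CPM), and Fosb and Jun are higher in every preserved library.

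Fosb was then counted by class of empty droplet. In free RNA it was 26.9, 17.5, 6.92 and 10.7 CPM in fresh NC1, NC2, PC1 and PC2, and 22.4, 10.9, 2.06 and 1.88 CPM in their cells. Barcodes that were a cell in a DMSO library held 3.47 to 3.99% of the free UMIs of the fresh libraries, but 24.1 to 75.0% of their Fosb UMIs, 51 of 123 in all. In these barcodes Fosb was 111 to 231 CPM, against 0 to 15.5 CPM in barcodes that were a cell only in a fresh library and 2.22 to 20.4 CPM in barcodes that were no cell elsewhere. The 0 to 15.5 CPM rested on 4 UMIs in all and lay under the level of 3 UMIs, 19.9 to 25.9 CPM per library. Fos in the same 3 classes was 255 to 376, 30.9 to 64.2 and 13.9 to 64.3 CPM. Without shared barcodes the difference of the Fosb ratio was −0.74 (adjusted p = 0.053) in place of −1.48, whereas LOC680406 (−3.45), Rup2 (−3.29), Mt-nd4l (−1.70), Alb (−1.51) and Asb2 (1.17) stayed called.

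The difference by diet was tested on the same ratio over 4 animals, 2 of each diet. 5 genes (0.0438% of 11428) were called at 2-fold. The ratio was lower in PC than in NC animals for Spp1, which encodes osteopontin (−4.20 ± 0.31 SE, adjusted p = 1.7e-07), Fabp4, a fatty acid binding protein (−2.60 ± 0.24 SE, adjusted p = 6.7e-06), AABR07000398.1 (−1.22 ± 0.20 SE, adjusted p = 0.012) and the apolipoprotein gene Apoe (−1.07 ± 0.15 SE, adjusted p = 0.0024). It was higher for Jund (1.10 ± 0.15 SE, adjusted p = 0.0019). AABR07000398.1 was highest in the preserved free RNA of NC2 (144 CPM) and of NC1 (58.5 CPM) and lay at 13.4 to 25.9 CPM in the other 6 libraries. Without NC2 its difference was −0.87 (adjusted p = 0.33). Jund was at 0.79 without PC2 and at 0.92 without NC1, and Apoe was at −0.89 without PC1, under the 2-fold minimum. Without NC1 Spp1 was at −4.84 and Fabp4 at −2.02, both called.

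Spp1, Fabp4 and Apoe were abundant in PC animals, in free RNA and in cells alike. Fabp4 was 756, 760, 705 and 778 CPM in the free RNA of PC1 fresh, PC2 fresh, PC1 DMSO and PC2 DMSO and 358, 743, 534 and 617 CPM in their cells. In NC1 fresh, NC2 fresh, NC1 DMSO and NC2 DMSO it was 56.8, 28.9, 17.0 and 28.5 CPM in free RNA but 2.97, 6.21, 3.07 and 3.17 CPM in cells. The ratio of free RNA to cells was thus larger in the NC libraries, whose cells hardly contained the transcript. Most of these NC free UMIs lay in barcodes that were PC cells, as counted below. Spp1 followed the same pattern, with 177 to 380 CPM in PC free RNA, 10.1 to 13.3 CPM in NC free RNA and 0.13 to 1.02 CPM in NC cells. The Spp1 values in NC free RNA rested on 16 to 27 UMIs per library. In NC cells 1 UMI was 0.0464 to 0.0627 CPM, so that the lowest levels there rested on few UMIs.

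In the 4 NC libraries most free UMIs of Fabp4 and Spp1, but not of Apoe, lay in barcodes that were PC cells. Barcodes with at most 100 UMIs that were a cell in a PC library held 4.91 to 6.62% of the free UMIs of the NC libraries. They held 184 of 245 Fabp4 UMIs and 59 of 87 Spp1 UMIs, or 52.1 to 89.0% and 63.6 to 72.7% per library. Of Apoe they held 97 of 378 UMIs or 17.0 to 41.4% per library. In these barcodes Fabp4 was 216 to 780 CPM and Spp1 was 127 to 150 CPM. In barcodes that were a cell only in the other NC libraries, which carried 53527 to 77649 UMIs per library, no UMI of Fabp4 or Spp1 was counted, which allows up to 38.6 to 56.0 CPM per library at 3 UMIs, for counting error only. In barcodes that were a cell nowhere else Fabp4 was 6.97 to 15.5 CPM and Spp1 3.00 to 5.4 CPM. Apoe was 159 to 260 CPM in barcodes of PC cells, 0 to 51.5 CPM in those of NC cells and 21.5 to 89.5 CPM elsewhere. The Apoe values in barcodes of NC cells rested on 6 UMIs in all. Without shared barcodes the diet difference of the ratio was −2.63 for Spp1 (adjusted p = 0.011), −0.72 for Fabp4 (adjusted p = 1.0), −0.65 for Apoe (adjusted p = 0.75), −1.28 for AABR07000398.1 (adjusted p = 0.011) and 1.11 for Jund (adjusted p = 0.0017). With 10 to 100 UMIs and without shared barcodes Spp1 was at −2.21 (adjusted p = 0.27), Jund at 0.65 (adjusted p = 0.28) and AABR07000398.1 at −1.51 (adjusted p = 0.0073).

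**Figure D5:**
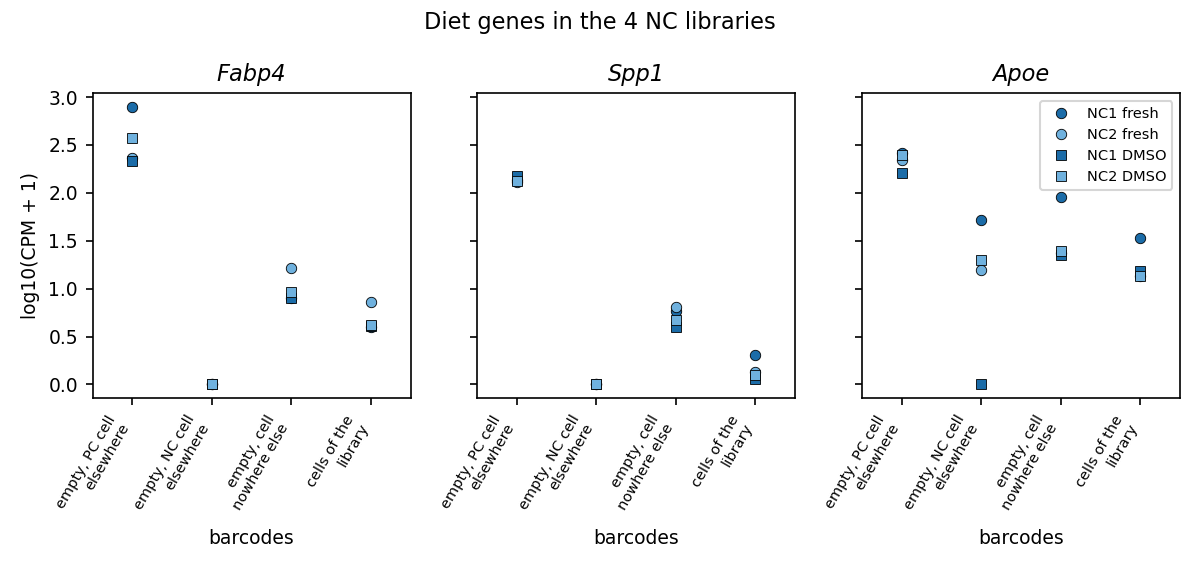
Level (y axis, log10 of CPM + 1) of Fabp4, Spp1 and Apoe in the 4 NC libraries, in empty droplets whose barcode is a PC cell in another library, a cell only in another NC library or no cell elsewhere, and in the cells of the library, 1 point per library. In every library the level is highest in barcodes of PC cells, and Fabp4 and Spp1 are at 0 in barcodes of NC cells.

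Within the free RNA alone, 184 genes (2.01% of 9156) differed between PC and NC animals, 130 higher (1.42%) and 54 lower (0.59%). Among genes with a mean of at least 20 CPM in either compartment, the largest increases were those of the macrophage elastase gene Mmp12 (log2 fold change 4.79 ± 0.19 SE in free RNA, 6.05 in cells), Spp1 (4.65 ± 0.26 SE; 8.92), Fabp4 (4.55 ± 0.18 SE; 7.16), RGD1561778 (4.16; 4.80) and the lipase gene Lpl (4.12; 4.81). Lpl was 142, 129, 128 and 111 CPM in the free RNA of PC1 fresh, PC2 fresh, PC1 DMSO and PC2 DMSO and 5.07 to 10.2 CPM in the NC libraries, and the groups did not overlap. The largest decreases at these levels were those of the chemokine genes Cxcl1 (−3.98 ± 0.43 SE; −4.92) and Cxcl2 (−2.22; −2.39), Rgcc, a cell cycle regulator (−2.13; −1.60), Mlycd, which encodes malonyl-CoA decarboxylase (−2.09; −1.45), and Tgfb1, a growth factor gene (−1.91; −2.84). In cells Cxcl2 (adjusted p = 0.095), Mlycd (0.057) and Tgfb1 (0.091) did not pass the test, and without animal NC1 Tgfb1 in free RNA was at −1.03 (adjusted p = 0.072). Without NC1 Cxcl1 was at −3.15 and Cxcl2 at −1.35, and without PC2 RGD1561778 was at 3.20, all still called. Without shared barcodes 191 genes were called in place of 184. Cxcl1 was 71.7, 42.8, 160 and 55.7 CPM in the NC and 2.67 to 6.92 CPM in the PC libraries. Of 12 tested Kupffer cell genes 6 were called higher in PC free RNA and none lower (median 1.13), with C1qb, a complement subunit, at a log2 fold change of 1.22. Of 10 tested T cell genes 5 were called lower and none higher (median −1.08), with Cd3g, a chain of the T cell receptor complex, at −1.06. Of 15 tested hepatocyte genes 3 were called higher (median 1.65). Members of low level could pass the filter through the PC animals alone, so that this median is a description only. The hepatocyte share of free UMIs was highest in PC1 fresh (0.101%). The median over all genes was −0.01.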

How the data were processed

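Droplet libraries (Chromium 3′ v2) of 8 samples were analysed. Reads had been aligned to Rnor6.0 (Ensembl release 86) and collapsed to UMIs by the authors using Cell Ranger 2.1.1, and the deposited counts cover all 737280 barcodes without normalization or cell selection. The paper states that the libraries of an experiment were pooled and shared a flowcell. Files were read with Python 3.11.15. UMIs were summed per gene over barcodes with 1 to 100 and at least 500 UMIs, with no doublet removal. CPM are UMIs per 1000000 UMIs of that compartment. Members and gene lists were chosen with earlier results of these data known.

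Sums were tested in edgeR 4.0.16 (R 4.3.3) by its quasi-likelihood method with TMM, filterByExpr and Benjamini-Hochberg adjustment. Pairing comes from the animal: deviations of its 2 libraries correlated at 0.24 to 0.37 across genes in free RNA. Diets were compared over 2 against 2 animals. Shares were compared by exact sign permutation over animals. The fits were tested on simulated data without animal effects, in which only abundant genes were changed. Calls at low levels and differences between animals were thus not covered. DESeq2 1.42.0, other droplet classes, filters, scalings and left-out animals were alternatives.

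Named genes were the up to 12 largest called differences in each direction with the same sign in 8 of 8 libraries and at least 50 CPM, the 10 genes with most free UMIs, the 5 largest per direction in other comparisons at 20 CPM or more (4 of 4 animals for preservation) and the 4 most abundant members of each list. Slc10a1 and Per1 are exceptions. Further list members, such as Cdk1, Mki67, Cenpf, Ctss, Fabp1 and Klf6, were also named outside these rules. Their changes can exceed those of the most abundant members. Limits from 3 UMIs cover counting error only. P-values measure the spread between these 4 animals. In edgeR this spread was moderated over all genes, so that the smallest p-values do not rest on 4 animals alone. The value of 1 list member is not reported here.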

Additional observations from a re-analysis of the deposited data

Results flagged for a closer look

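For 11 named genes the free RNA to cells ratio differed between groups by the interaction test of edgeR. They were taken from 16 genes called for preservation and 5 for diet. The rule was up to 5 per direction with a mean of at least 20 CPM in either compartment. For preservation the direction also had to be the same in 4 of 4 animals. Between preserved and fresh libraries these were LOC680406 (log2 difference −3.41), Rup2 (−2.83), Mt-nd4l (−1.65), Fosb (−1.48), Alb (−1.42) and Asb2 (1.15). Between PC and NC animals these were Spp1 (−4.20), Fabp4 (−2.60), AABR07000398.1 (−1.22), Apoe (−1.07) and Jund (1.10). LOC680406, Rup2 and Alb lost the call without animal PC1, and AABR07000398.1 without NC2. Under the 2-fold minimum, with an adjusted p still under 0.05, were Asb2 without NC1 (0.91), Jund without NC1 (0.92) or PC2 (0.79) and Apoe without PC1 (−0.89). Fosb, Fabp4 and Apoe lost it without the barcodes that were a cell in another library. The cause of these differences was not tested.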

How the results depend on the processing

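The 281 genes called between free RNA and cells became 180 with the DESeq2 test, 60 (28 higher, 32 lower) with at least 10 UMIs in every column, 130 with cell UMIs thinned to the free RNA total, 2867 without a fold minimum and 432 with 10 to 100 UMIs and no shared barcodes, the last chosen after seeing the data. The 16 genes of the preservation difference became 2, 5 and 87 with the DESeq2 test, 10 UMIs in every column and no fold minimum. The 67 genes of preserved against fresh free RNA became 39, 31 and 491 with these and 141 without a filter. The 5 genes of the diet difference became 12 without a filter, 8 with fresh libraries only, 3 without shared barcodes and 2 with 10 to 100 UMIs and no shared barcodes. The 184 genes of PC against NC free RNA became 362 without a filter, 299 without a fold minimum and 114 with DMSO libraries only.

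Without the pairing by animal (no block), 83, 8 and 11 genes were called in place of 281, 16 and 67. With single animals left out the counts were 251 to 277, 11 to 18, 5 to 16, 37 to 123 and 210 to 319 in the 5 comparisons in the order above (free RNA against cells, preservation difference, diet difference, preserved against fresh, PC against NC). The count of preserved against fresh was 123 without NC1 and 37 without PC1, that of the diet difference 9 without PC1 and 16 without PC2, and that of PC against NC 319 without NC2 and 315 without PC1. In the diet comparisons a left-out animal leaves 1 animal of that diet, assumed to vary like the others. Without the block 1 of 18 hepatocyte genes was higher in place of 15, and 7 mitochondrial genes had a lower ratio in place of 12 (5 with DESeq2).

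With DMSO libraries only the mitochondrial share difference was −0.101 and the hepatocyte one −0.000586 percentage points, and with fresh libraries only the haemoglobin one was 0.00135. With single animals left out the haemoglobin difference lay between −0.00553 and 0.00138, the latter without NC1.

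Of 1529 alternatives over 83 named results, 1307 kept direction and call, 207 lost the call and 15 changed sign. With 10 to 100 UMIs and no shared barcodes, Mfsd14b was at −0.11, Wipf1 at −0.047 and the diet difference of Fabp4 at 0.0035. With barcodes of 1 UMI the log2 fold changes were −0.0047 for Hp, −0.28 for Hmox1, −0.17 for S100a4, −0.45 for Itgae, −0.30 for Cd3d, −0.23 for Cd3e, −0.10 for Cd200r1, −0.48 for Stmn1 and −0.32 for Ube2c. With fresh libraries only Cd3e was at −0.010 and Pcna at −0.026, and with DMSO libraries only Mt-nd1 at −0.10. The causes were not tested. Depth limits genes of low level, since 1 UMI in free RNA is 0.365 to 0.680 CPM.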
